A study of Mus musculus with 32 samples.

Results

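Cystatins are small proteins that block cysteine proteases of the papain family, the cathepsins, and some of them also block legumain, an asparaginyl endopeptidase of the lysosome. The 4 genes described here, of 18588 in the deposited table, were the 3 cystatin genes Cst7, Cst3 and Cstb and the legumain gene Lgmn. They were listed by name and read in microglia of 2 genotypes at 4 ages. Cst7 was chosen by its signal at 4 months of age, where it had the largest rise of any gene in rTg4510 microglia. Its values at 4 months are therefore given as a description, with no test of genotype or age. The other ages and the other 3 genes were tested.

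Microglia were isolated with CD11b beads from the forebrains of female rTg4510 mice and of WT littermates (labelled as strain 129/FVB F1) at 2, 4, 6 and 8 months of age, and each library came from the pooled forebrains of several animals. rTg4510 mice carry a human 4-repeat tau transgene with a mutation of familial frontotemporal dementia, together with a tetracycline-controlled transactivator under the CaMKIIα promoter, which confines tau to forebrain neurons, so that the microglia themselves are not the cells driven to make it; WT mice carried neither transgene. Of 32 libraries, 4 in each group, 28 were used, because the authors left out replicate 3 of both genotypes at 4 months and replicate 4 of both at 8 months after RNAseq quality control. This left 4 libraries per group at 2 and 6 months and 3 at 4 and 8 months. The deposited values are log2 gene signals, and every library used had a median of 5.63, with lowest values between 1.23 and 1.92. The files give no read counts, so the depth behind a value is unknown. A log2 difference of 1 is a doubling of the signal, and signals of different genes were not compared as amounts because they are not scaled by length.

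Within the cystatin family, cystatin F, the product of Cst7, is held inside the cell, reaches lysosomes and is known from natural killer cells, cytotoxic T cells and activated microglia. There it inhibits cathepsins and, after trimming of its N-terminus, cathepsin C. Cystatin C, the product of Cst3, is secreted and is among the most abundant transcripts of microglia. Cystatin B, the product of Cstb, is a stefin that lacks a secretion signal and acts in the cytosol and nucleus. Legumain cuts after asparagine, matures several cathepsins, and is known to cleave tau and the amyloid precursor protein; cystatins C and F inhibit it through a site separate from the one that holds cathepsins.

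The cystatins share a loop with the residues glutamine, any, valine, any and glycine. It is shown here because the 3 cystatin genes hold it and Lgmn does not. A search of the coding sequences for this motif as in-frame codons on the coding strand found 1 match in each of the 3 cystatin genes and none in Lgmn. It was found in 1780 of 21794 coding genes (8.17%), so a match alone does not mark a cystatin. The matches are given below from the GRCm38 genome, 5′ to 3′ on the coding strand, with the 15 motif bases in capitals and 15 bases on either side.
Cst7: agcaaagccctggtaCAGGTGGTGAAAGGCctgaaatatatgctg
Cst3: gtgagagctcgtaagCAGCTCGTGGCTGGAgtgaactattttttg
Cstb: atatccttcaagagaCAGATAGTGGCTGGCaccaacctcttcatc
In Cst7 the motif began at codon 80 of 144, in Cst3 at codon 75 of 140 and in Cstb at codon 46 of 98. The stretch of Cst7 was joined from exons 2 and 3 (chromosome 2, 150575859 to 150577682, plus strand) and that of Cst3 from exons 1 and 2 (chromosome 2, 148872904 to 148875170, minus strand), while that of Cstb lay within exon 2 (chr10:78426981-78427025, plus strand). Within the motif, Cst3 and Cstb shared 12 of 15 bases, Cst7 and Cstb 10, and Cst7 and Cst3 9.

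By their GENCODE positions on GRCm38, Cst7 (Entrez 13011) lay at chr2:150570415-150578944 on the plus strand with 4 exons, and Cst3 (Entrez 13010) at chr2:148871722-148875692 on the minus strand with 3 exons. These 2 genes were on the same chromosome, 1694722 bases apart. Cstb (Entrez 13014) lay at chr10:78425669-78427622 on the plus strand with 3 exons, and Lgmn (Entrez 19141) at chr12:102394084-102439813 on the minus strand with 14 exons. No annotated gene overlapped any of the 4, and no stretch of 50 bases in their transcripts was shared with a transcript of another gene.

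Cst7 was low in every WT library and high in every rTg4510 library from 4 months on. In WT microglia the signals were 4.49, 4.04, 4.25 and 3.76 at 2 months, 4.45, 4.12 and 4.29 at 4 months, 5.03, 4.57, 4.89 and 3.99 at 6 months, and 4.25, 5.04 and 4.52 at 8 months. In rTg4510 microglia they were 5.12, 5.60, 5.78 and 5.29 at 2 months, 10.00, 10.02 and 10.16 at 4 months, 9.40, 9.49, 9.64 and 9.50 at 6 months, and 9.26, 9.36 and 8.97 at 8 months. The groups did not overlap at any age, 4 months included, by which the gene was chosen; rTg4510 libraries lay above all WT libraries in 7.49%, 19.1%, 18.2% and 21.2% of all genes at 2, 4, 6 and 8 months. The lowest WT value stood 2.02 above the lowest signal of its own library. However, the WT group means of 4.13 to 4.62 lay under the library median of 5.63. Over all libraries used, the rank of Cst7 ran from 752 to 16334.5 of 18588 genes. The folds given for Cst7 therefore rest on a low WT signal.

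**Figure D1:**
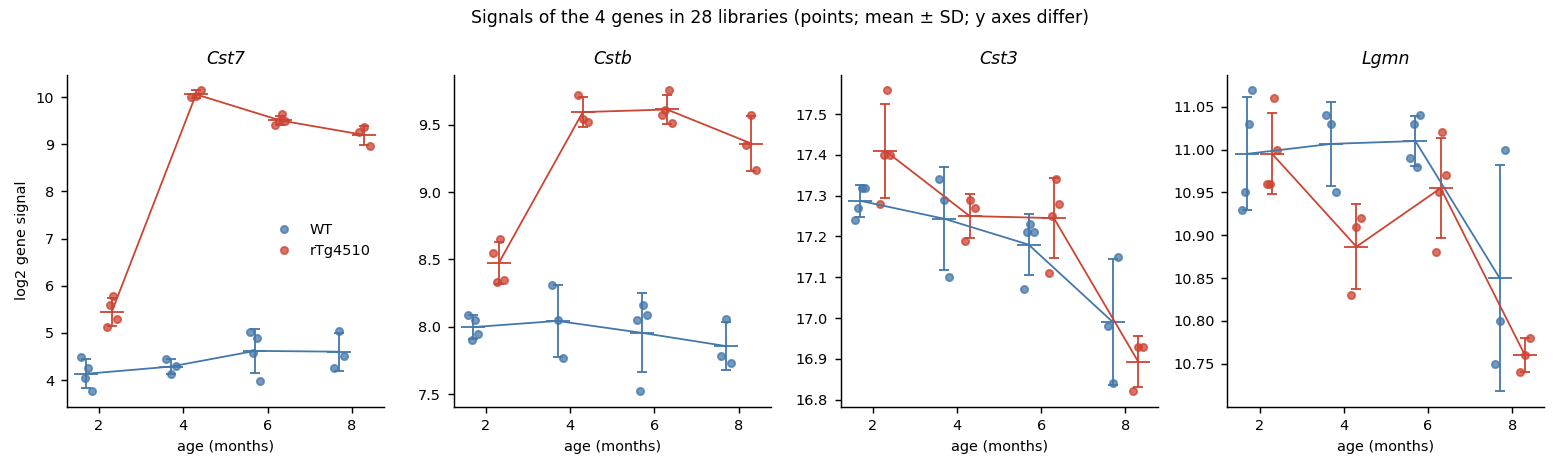
Log2 gene signal (y axis) of Cst7, Cstb, Cst3 and Lgmn against age in months (x axis) in WT (blue) and rTg4510 (red) microglia; points are libraries, bars are the mean ± SD over 3 or 4 libraries, and the y axes differ. Cst7 and Cstb separate by genotype, with rTg4510 means at 4 months of 10.06 and 9.59 against WT means of 4.29 and 8.04, whereas Cst3 and Lgmn spread over less than 1 log2 unit in all libraries.

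At 2 months Cst7 was already 2.49-fold higher in rTg4510 microglia (log2 difference 1.32 ± 0.206 SE, FDR = 3.18e-04), which ranked 47 among all rises at that age. By the rule used throughout, an FDR under 0.05 and a change over 1.5 fold, 1.58% of all genes rose at 2 months. At 4 months the difference was 5.77 (54.6-fold), which is the value by which Cst7 was listed; the next values at that age were 5.32, for a gene without a RefSeq name, and 5.02 for Tnfrsf11b, a decoy receptor for RANK ligand. At 6 months the difference was 4.88 ± 0.206 (29.5-fold, FDR = 3.36e-13), the largest of all genes, and at 8 months 4.59 ± 0.237 (24.1-fold, FDR = 1.32e-11), the third largest. The shares of all genes that rose were 11.3% at 6 months and 10.5% at 8 months. In bulk RNA such as this, a change in the number of cells of a type and a change in RNA per cell cannot be told apart.

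The genotype difference of Cst7 grew with age in the comparisons that leave out 4 months. It was larger at 6 than at 2 months by 3.57 ± 0.291 (FDR = 7.75e-08) and larger at 8 than at 2 months by 3.28 ± 0.314 (FDR = 9.05e-07), where 5.92% and 4.85% of all genes had a difference that rose. Between 6 and 8 months the change was -0.29 (95% interval -0.95 to 0.36, FDR = 1). Within rTg4510 microglia Cst7 rose by 4.05 ± 0.206 from 2 to 6 months (FDR = 1.66e-11), as 6.82% of all genes did. As a description, its rTg4510 mean went from 5.45 at 2 months to 10.06 at 4 months and then to 9.51 and 9.20, so that the highest group was the youngest of the 3 later ages. In WT microglia the difference between 8 and 2 months was 0.47 (FDR = 0.252).

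Cstb, the cytosolic stefin, moved in the same direction over a smaller range. Its WT signals were 8.09, 7.90, 8.05 and 7.95 at 2 months, 8.31, 8.05 and 7.77 at 4 months, 8.05, 7.52, 8.16 and 8.09 at 6 months, and 7.78, 8.06 and 7.73 at 8 months. The rTg4510 signals were 8.55, 8.33, 8.65 and 8.35 at 2 months, 9.72, 9.54 and 9.52 at 4 months, 9.57, 9.61, 9.76 and 9.51 at 6 months, and 9.35, 9.57 and 9.16 at 8 months. All rTg4510 libraries lay above all WT libraries of their age, as for Cst7, and the shares of all genes given there apply.

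The genotype difference of Cstb was 1.55 ± 0.153 at 4 months (2.93-fold, FDR = 1.29e-07), 1.66 ± 0.132 at 6 months (3.15-fold, FDR = 2.59e-09) and 1.5 ± 0.153 at 8 months (2.83-fold, FDR = 1.43e-07). At 4 months 9.47% of all genes rose. At 2 months the difference was 0.48 ± 0.132 (1.39-fold, FDR = 0.0338), which was under the fold limit, and 4.76% of all genes were higher at that FDR alone. This early value was at the edge of the test: the FDR passed 0.05 without any one of WT replicates 2, 3 and 4 or rTg4510 replicates 1 and 3 at 2 months, with differences between 0.42 and 0.49, and was 0.0579 after quantile normalization.

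The step in Cstb fell between 2 and 4 months. The genotype difference was larger at 4 than at 2 months by 1.07 ± 0.202 (FDR = 0.00207), where 3.77% of all genes had a difference that rose, and remained larger at 6 months (by 1.18, FDR = 1.89e-04) and 8 months (by 1.03, FDR = 0.00209). From 4 to 6 months it changed by 0.11 (95% interval -0.31 to 0.53) and from 6 to 8 months by -0.15 (95% interval -0.58 to 0.27). Within rTg4510 microglia Cstb rose by 1.12 ± 0.143 from 2 to 4 months (FDR = 1.28e-05), an age step at which 4.03% of all genes rose, whereas in WT the same step was 0.05 (FDR = 0.958).

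Cst3, the secreted cystatin, ranked between the third and the sixth highest signal (not scaled by length) of all genes in every library and did not separate by genotype. Its WT signals spanned 17.24 to 17.32, 17.10 to 17.34, 17.07 to 17.23 and 16.84 to 17.15 from the youngest to the oldest group. The rTg4510 signals were 17.28 to 17.56, 17.19 to 17.29, 17.11 to 17.34 and 16.82 to 16.93 at the same ages. The groups overlapped at every age. The differences were 0.12, 0.00, 0.06 and -0.10 from 2 to 8 months (FDR = 0.399, 0.983, 0.503 and 0.393). On the deposited scale the 95% intervals of the 4 ages lay between -0.26 and 0.26, which is well inside the 1.5-fold limit on either side. After quantile normalization the differences were -0.03, 0.28, 0.17 and 0.33 and again none passed, so the sign at 2 and 8 months depended on the scaling. The SE at 8 months was then 0.143, against 0.0775 on the deposited scale, so the narrow intervals above hold for the deposited scale only.

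Lgmn, the protease among the 4, also stayed within a narrow range on the deposited scale. Its WT signals were 10.93, 10.95, 11.03 and 11.07 at 2 months, 11.04, 11.03 and 10.95 at 4 months, 10.99, 11.03, 10.98 and 11.04 at 6 months, and 10.75, 10.80 and 11.00 at 8 months. The rTg4510 signals were 10.96, 10.96, 11.06 and 11.00, then 10.83, 10.91 and 10.92, then 10.88, 10.95, 11.02 and 10.97, and at 8 months 10.74, 10.76 and 10.78. At 4 months all rTg4510 values lay below all WT values, as was true of 17.5% of all genes, and at the other ages the groups overlapped.

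The genotype differences of Lgmn were 0.00, -0.12, -0.05 and -0.09 from 2 to 8 months (FDR = 0.995, 0.101, 0.37 and 0.228), with 95% intervals that lay between -0.23 and 0.09. From 4 months on the direction of this result held when the scale was changed, but its FDR moved to the other side of 0.05. The 275 genes with a mean signal within 0.5 of that of Lgmn, itself included, had a median difference of 0.15, 0.24, 0.31 and 0.29 at the 4 ages on the deposited scale, while the median over all genes lay between -0.04 and 0.01. After quantile normalization, which gives all libraries the same distribution, the differences of Lgmn were -0.16, -0.51, -0.49 and -0.49, and the last 3 passed the FDR (1.79e-06, 1.93e-07 and 2.39e-06) while under the 1.5-fold limit. On either scale Lgmn was lower relative to genes of like signal in rTg4510 microglia from 4 months on, whose median after quantile normalization was -0.14 at each of those ages.

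**Figure D2:**
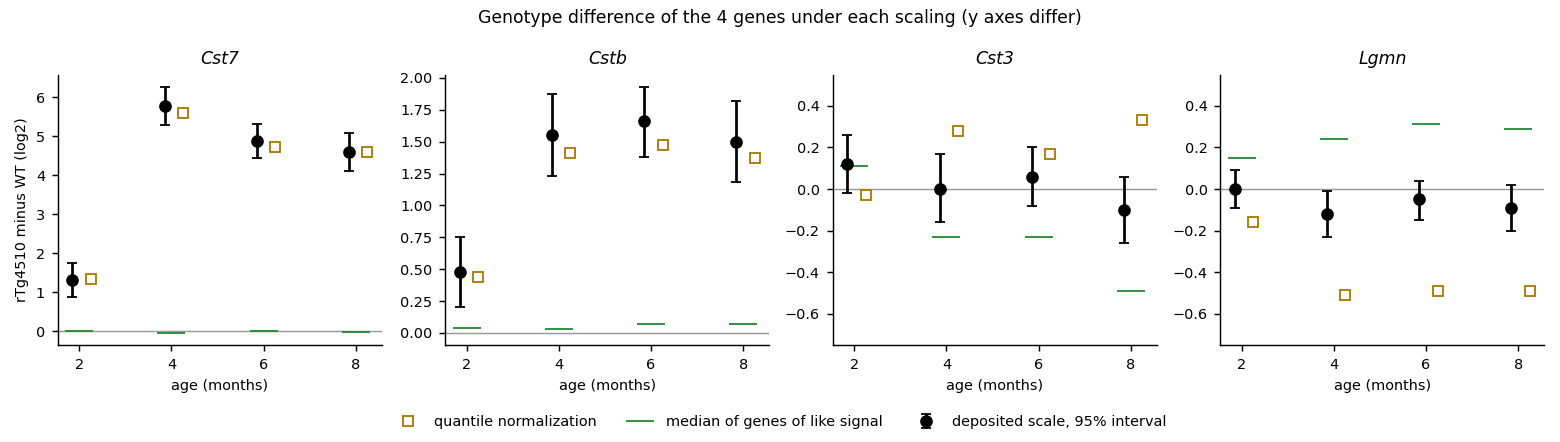
Difference rTg4510 minus WT in log2 signal (y axis) against age in months (x axis) for each of the 4 genes; black points with 95% intervals are on the deposited scale, open squares are after quantile normalization, and green dashes are the median difference of genes within 0.5 log2 of that gene's mean signal. Cst7 and Cstb hardly move with the scaling, whereas Lgmn goes from -0.12, -0.05 and -0.09 to -0.51, -0.49 and -0.49 at 4, 6 and 8 months.

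Cst3 and Lgmn were lower at 8 months than at 2 months, and whether this decline differed between genotypes did not pass the test for either gene. In rTg4510 microglia the difference between 8 and 2 months was -0.51 ± 0.0725 for Cst3 (FDR = 2.2e-05) and -0.23 ± 0.0484 for Lgmn (FDR = 0.00117), both under the 1.5-fold limit, and 11% of all genes were lower at this FDR. In WT microglia the same comparison gave -0.29 ± 0.0725 for Cst3 (FDR = 0.0258) and -0.15 ± 0.0484 for Lgmn (FDR = 0.0937), where 3.39% of all genes were lower. The difference between genotypes in this decline was -0.22 for Cst3 (95% interval -0.43 to -0.01, FDR = 0.219) and -0.09 for Lgmn (95% interval -0.23 to 0.05, FDR = 0.521).

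The decline of Cst3 in rTg4510 microglia was not stable to the scaling. After quantile normalization its difference between 8 and 2 months in rTg4510 microglia was 0.07 (FDR = 0.779), while in WT it stayed at -0.29 without passing (FDR = 0.225), and only 3 genes, Cst3 among them, lay within 0.5 of its mean signal, so that few genes set the scale at that level. In WT microglia the FDR of the decline passed 0.05 without any one of replicates 2, 3 and 4 at 2 months or replicates 1 and 2 at 8 months. For Lgmn, WT replicate 3 at 8 months, at 11.00, stood above the other 2; without it the decline in WT was -0.22 (FDR = 0.00636) and the genotype difference at 4 months, still -0.12, had an FDR of 0.0323 through the smaller residual spread.

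Library by library, Cst3 and Lgmn also moved together inside the groups. Each library's signal was taken as a deviation from its group mean, and over 28 libraries the deviations of Cst3 and Lgmn had a Pearson r of 0.766 (permutation within groups, p = 1.1e-04, adjusted over 6 pairs p = 6.6e-04) and a Spearman rho of 0.756 (permutation p = 4e-05). The r was 0.714 in WT and 0.881 in rTg4510 libraries, and 0.755 after dropping the pair of libraries most distant in Cst3. Cst7 and Cstb, which rose together across the groups, had an r of 0.349 over the same deviations (permutation p = 0.193, adjusted p = 0.578), a rho of 0.466 (permutation p = 0.0424) and an r of 0.453 without the 2 farthest libraries. All genes of a library share its RNA and its scaling, and the deviations of Lgmn had an r of 0.351 with the median deviation of the 274 other genes of like signal.

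**Figure D3:**
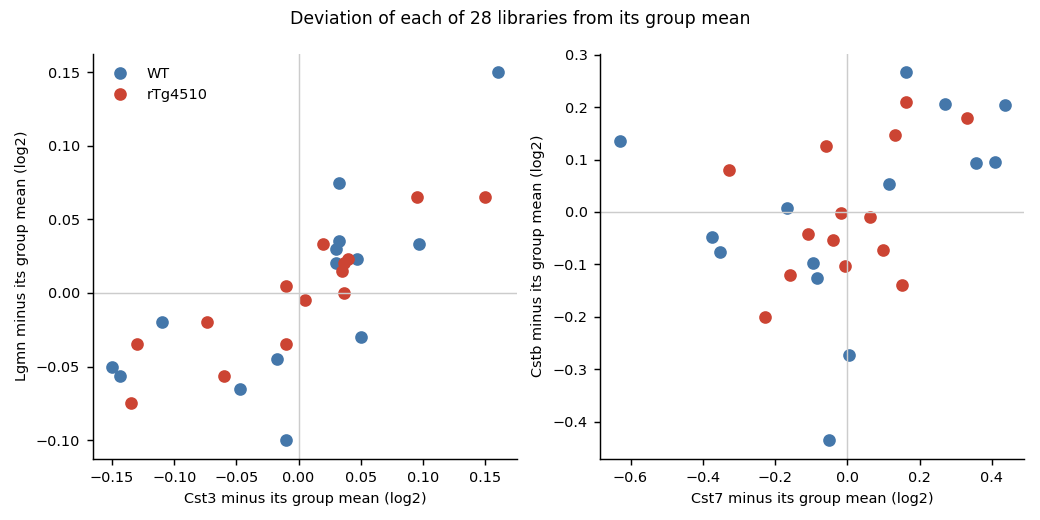
Signal of each of 28 libraries minus its group mean (log2) for Lgmn against Cst3 (left) and for Cstb against Cst7 (right), with WT in blue and rTg4510 in red. The points on the left lie along a rising line (r = 0.766), in both genotypes, and those on the right scatter more widely (r = 0.349).

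Many targets of the cystatins rose in rTg4510 microglia, although Cst3 itself did not pass the test. All 10 cysteine cathepsin genes of the list used here were in the table, and the number that rose was 1 at 2 months (Ctsl) and 5 at each later age (Ctsb, Ctsh, Ctsl, Ctss and Ctsz), with none that fell at any age; the shares of all genes that rose were 1.58%, 9.47%, 11.3% and 10.5%. The median difference over the 10 genes was 0.24, 0.54, 0.63 and 0.52 from 2 to 8 months. Cathepsins B and L, endopeptidases that break down proteins in lysosomes, showed the widest change, with Ctsb higher by 1.46, 1.62 and 1.61 at 4, 6 and 8 months (FDR = 6.47e-10, 6.58e-12 and 1.44e-10) and Ctsl by 1.47, 1.78 and 1.61 (FDR = 7.96e-11, 2.47e-13 and 1.91e-11). Ctss, which trims the invariant chain in antigen presentation, rose by 0.66, 0.82 and 0.73 and Ctsh, an aminopeptidase, by 0.65, 0.91 and 0.89.

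Cathepsin C, the dipeptidyl peptidase on which cystatin F is known to act in cytotoxic cells, changed far less than its inhibitor. Ctsc was higher by 0.43 ± 0.074 at 4 months (FDR = 1.38e-04), 0.44 ± 0.0641 at 6 months (FDR = 1.31e-05) and 0.31 ± 0.074 at 8 months (FDR = 0.00321), each under the 1.5-fold limit, and by 0.20 at 2 months (FDR = 0.0831). Ctsf had values of 0.32 and 0.25 at 4 and 6 months that passed the FDR alone. Ctsk, Ctso and Ctsw did not pass at any age, and Ctsk and Ctsw had standard errors of 0.566 or more.

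Outside the papain family, 7 of 8 other lysosomal proteases were in the table, and 2 of them rose at 2 months and 5 at each later age, against the same shares of all genes (1.58%, 9.47%, 11.3% and 10.5%). Ctse, an aspartic protease, rose by 1.58, 3.69, 3.99 and 3.80, and Dpp7, a dipeptidyl peptidase, by 0.59, 1.5, 1.56 and 1.43. Ctsd, the main aspartic protease of lysosomes, rose by 1.12, 1.11 and 1.03 from 4 months on, and the carboxypeptidases Ctsa and Scpep1 also rose at those ages. Pigk, the other asparaginyl protease family member, which attaches lipid anchors to proteins, had differences of 0.01, -0.04, 0.14 and 0.02 that did not pass. Of 7 known substrates of legumain, 6 were in the table, and those that rose were Ctsl at 2 months and Ctsb, Ctsh and Ctsl at each later age, as given above. Set, an inhibitor of protein phosphatase 2A, passed the FDR alone at 6 and 8 months (0.34 and 0.22). App had differences between 0.03 and 0.17 and passed the FDR alone at 6 months. Mouse Mapt had differences between -1.01 and -0.27 that did not pass at any age.

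**Figure D4:**
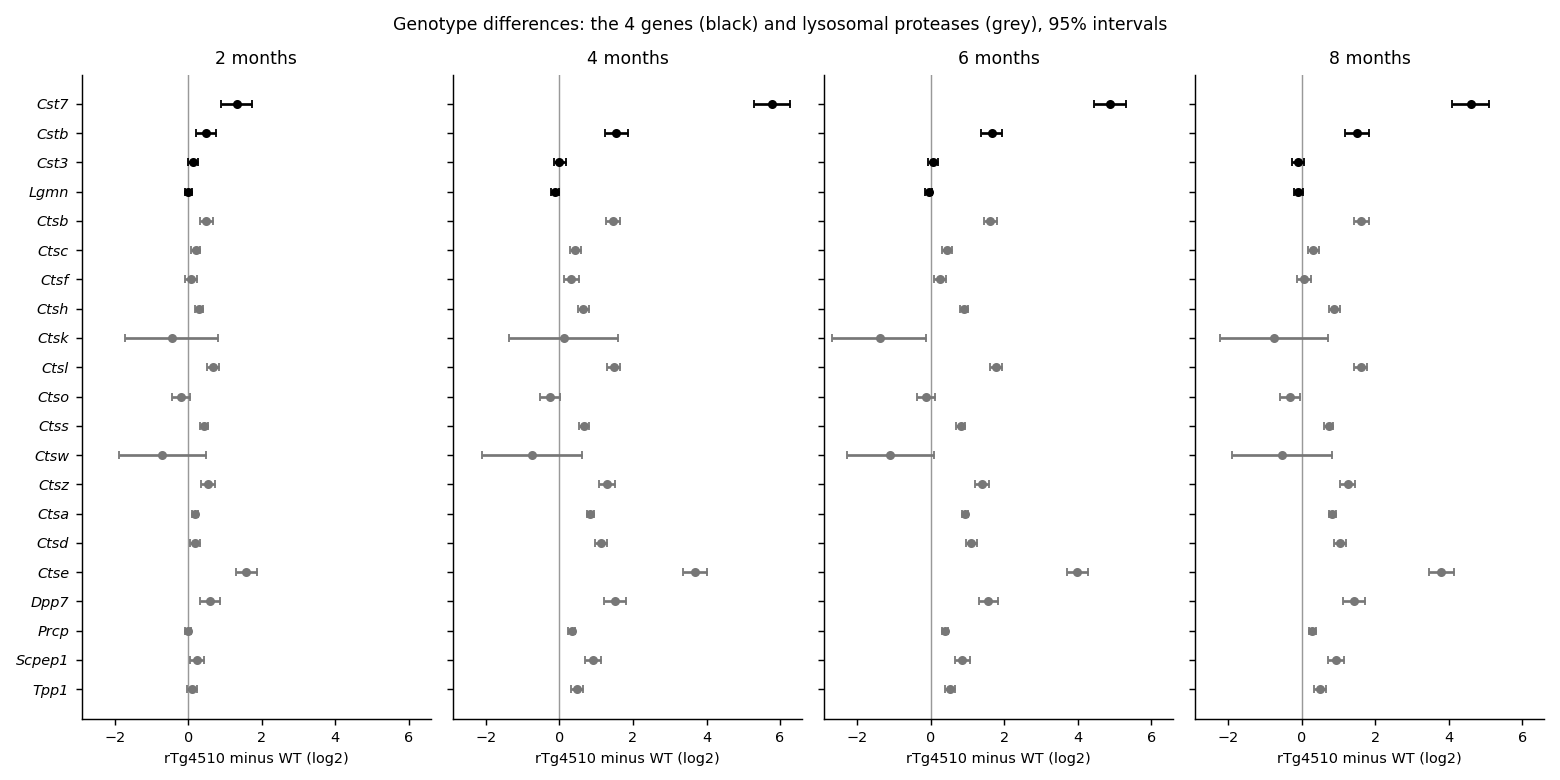
Difference rTg4510 minus WT in log2 signal with 95% intervals (x axis) for Cst7, Cstb, Cst3 and Lgmn (black) and the lysosomal protease genes of both lists (grey), at 2, 4, 6 and 8 months. At 6 months Cst7 (4.88) and Ctse (3.99) stand apart to the right, Cstb (1.66) lies beside Ctsb (1.62) and Ctsl (1.78), and Cst3 (0.06) and Lgmn (-0.05) lie at 0.

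The balance of an inhibitor and its target within a library was measured as the difference of their log2 signals, which a common scaling of a library leaves unchanged. For 8 pairs at 4 ages, 29 differences between genotypes were tested with a two-sided exact permutation test, and the 3 Cst7 pairs at 4 months were described only. With 4 libraries per group the smallest p is 0.0286 and with 3 it is 0.1, and after adjustment over the 29 tests no pair passed 0.05: the smallest adjusted p was 0.0753 at 2 and 6 months and 0.138 at 4 and 8 months. The values therefore describe these libraries, with the separation of the groups given beside them. How often pairs of all genes separate in this way was not computed. Among single genes, rTg4510 libraries lay above all WT libraries in 7.49%, 19.1%, 18.2% and 21.2% at 2, 4, 6 and 8 months.

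Cst7 minus each of its 3 targets was higher in every rTg4510 library than in any WT library of the same age. This includes 4 months, the age by which Cst7 was chosen. Cst7 minus Ctsc was -6.38 ± 0.334 (SD, n = 4) in WT and -5.26 ± 0.281 (SD, n = 4) in rTg4510 microglia at 2 months, and -6.00 ± 0.426 against -1.56 ± 0.0609 at 6 months. Cst7 minus Lgmn differed by 1.32 at 2 months, 4.94 at 6 months and 4.68 at 8 months, which is almost the change of Cst7 itself, and by 5.89 at 4 months as a description.

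Cst3 minus Ctsb and Cst3 minus Ctss were lower in every rTg4510 library than in any WT library of the same age. Ctsb and Ctss alone were already higher in every rTg4510 library, while the Cst3 groups overlapped. Cst3 minus Ctsb was 6.69 ± 0.108 in WT and 6.32 ± 0.0845 in rTg4510 microglia at 2 months and 6.28 ± 0.163 against 4.72 ± 0.0625 at 6 months (SD, n = 4), and the genotype difference ran from -0.37 at 2 months through -1.46 and -1.56 to -1.71 at 8 months. Cst3 minus Ctss differed by -0.30, -0.66, -0.75 and -0.83. After quantile normalization the second of these pairs turned to 0.20, 0.02 and 0.22 at 4, 6 and 8 months, so the direction of Cst3 against Ctss rests on the deposited scale. Cst3 minus Lgmn differed by 0.12, 0.13, 0.12 and -0.01, and its groups overlapped except at 4 months. After quantile normalization this pair differed by 0.81 at 8 months. The genotype differences of Cst3 and Lgmn were then 0.28 and -0.51 at 4 months and 0.17 and -0.49 at 6 months. From 4 months on the small size of this pair difference therefore rests on the deposited scale.

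Cstb minus Ctsb and Cstb minus Ctsl lay close together in the 2 genotypes. Cstb minus Ctsb was -2.60 ± 0.192 in WT and -2.62 ± 0.0943 in rTg4510 microglia at 2 months and -2.94 ± 0.176 against -2.91 ± 0.116 at 6 months (SD, n = 4), with genotype differences of -0.01, 0.09, 0.03 and -0.11. Cstb minus Ctsl differed by -0.20, 0.08, -0.12 and -0.10, and only at 2 months did the groups not overlap. These values are within the spread between libraries, apart from the last named pair at 2 months.

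**Figure D5:**
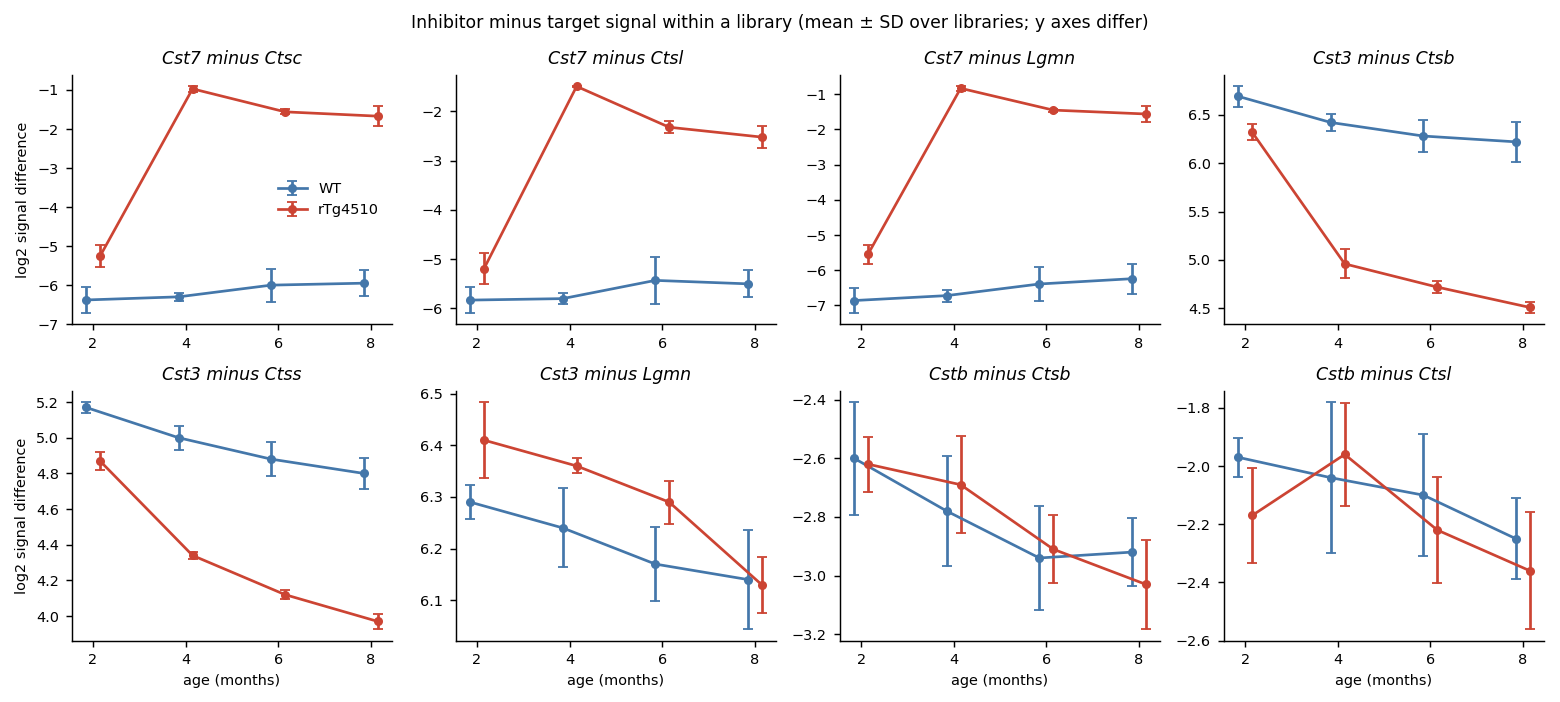
Log2 signal of an inhibitor minus that of a target in the same library (y axis) against age in months (x axis) for 8 pairs, as the mean ± SD over 3 or 4 libraries in WT (blue) and rTg4510 (red); the y axes differ. The Cst7 pairs lie higher in rTg4510 (Cst7 minus Lgmn at -5.54 at 2 months and -0.83 at 4 months), Cst3 minus Ctsb and Cst3 minus Ctss lie lower, and the lines of Cstb minus Ctsb and Cstb minus Ctsl cross.

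Few other cystatins could be set beside these genes. None of 11 other type 2 cystatin genes was in the table, of 13 other stefin genes Csta1 and Stfa2l1 were, and of 5 plasma proteins with cystatin domains Kng2 was. Csta1 (-1.15) and Stfa2l1 (-1.44) fell at 6 months, when 8.54% of all genes fell. Csta1 had a like difference of -1.17 at 2 months that did not pass (FDR = 0.133). In the rTg4510 libraries of that age it lay within 1.58 of the lowest signal. Stfa2l1 went the other way at 2 months, at 1.31 (FDR = 0.0832). Csta1 and Stfa2l1 were -0.77 and -0.62 at 4 months and 0.21 and -0.09 at 8 months, and none of these passed. Both genes are uncertain because reads of this near-identical gene cluster may be split among its copies. Stefins of this cluster are known from neutrophils, and 9 of 10 neutrophil markers fell at 6 months and 7 at 8 months. The summed log2 level of those markers was 9.12 to 10.40 in WT and 7.53 to 8.24 in rTg4510 libraries at 6 months, and their part in the fall of the stefins was not tested. Kng2, a kininogen, fell by 1.67 at 6 months and by 1.78 at 8 months, when 5.37% of all genes fell, but it lay within 1.58 of the lowest signal in the rTg4510 libraries of both ages, so the floor limits these folds.

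Because cystatin F is also made by natural killer and T cells, their markers were read beside Cst7. Of 10 such markers 8 were in the table; Klrb1c, the NK1.1 antigen, rose at every age by 0.89, 1.94, 2.31 and 1.53, Ncr1 fell at 4 months, when 4.33% of all genes fell, and Nkg7, Gzma, Gzmb and Prf1 fell at 6 months. The summed log2 level of the list was 6.69 to 8.18 over the WT libraries and 6.80 to 7.82 over the rTg4510 libraries, with overlapping genotypes at every age. Within rTg4510 it spanned 6.80 to 7.03 in the youngest group and then 7.08 to 7.46, 7.27 to 7.44 and 7.09 to 7.82. Within rTg4510 the sum was thus higher at the 3 ages when Cst7 was high. In WT, where Cst7 was low, it reached 7.96 at 4 months and 8.18 at 8 months. Klrb1c had the highest rTg4510 mean of the list at every age, with 5.07, 6.27, 6.63 and 6.04 from 2 to 8 months. From 2 to 6 months the rTg4510 means of the other markers fell, except that of Cd3e, which went from 3.19 to 3.61. The part of this list and of Klrb1c in the Cst7 signal was not tested. Trac lay within 1.58 of the lowest signal in the rTg4510 group at 4 months, and Cd3e did so in the WT group at 2 months. The 7 microglial markers had a summed level of 14.36 to 15.13 over all libraries. At 2 months the sum was 14.71 to 14.88 in rTg4510 against 14.86 to 15.13 in WT. It was 14.59 to 14.69 against 14.78 to 15.01 at 4 months and 14.57 to 14.79 against 14.93 to 15.08 at 6 months. At 8 months it was 14.36 to 14.47 against 14.66 to 14.92. Tmem119 fell at 4, 6 and 8 months and Itgam at 6 months. Summed astrocyte and oligodendrocyte markers reached 11.63 and 10.92 in WT libraries at 8 months, against 10.20 and 9.82 in rTg4510.

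Genes whose group means most resembled those of each member were named by Pearson's r over the 8 group means, among 8908 named genes with a mean signal above the median. For Cst7 they were Ola1, Dcstamp, Actr3-ps, Itgax and Pgam1, with r from 0.998 to 0.996, but 640 genes had an r above 0.95, so this shape was common. Their sizes differed: Itgax, the CD11c integrin chain, rose by 1.20, 3.85, 3.43 and 3.19 and Dcstamp, a fusion protein of osteoclasts, by 1.01, 3.65, 2.96 and 2.83, whereas Ola1 rose by 0.65, 0.62 and 0.60 from 4 months on. Over the 28 single libraries Itgax (0.989) and Dcstamp (0.986) were among the 3 most alike, while Ola1 ranked 713. For Cstb the 5 were Gapdh, Timp2, Gm12537, Gm12922 and Cd9, and 1001 genes had an r above 0.95; Timp2, a metalloproteinase inhibitor, rose by 1.23, 1.34 and 1.34 and Cd9, a tetraspanin, by 1.81, 1.87 and 1.70 at 4, 6 and 8 months.

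Cst3 and Lgmn had few such neighbours. For Cst3 they were Gm1826, Snrpa, Cox14, Exosc5 and Dynlt1-ps1, and only 4 genes had an r above 0.95. For Lgmn they were Spast, Ctc1, Pan3, Rogdi and Kbtbd6, with 7 genes above 0.95. Over single libraries Lgmn was the third most alike to Cst3 and Cst3 the fifth most alike to Lgmn (r = 0.804), while Rogdi was first for Lgmn (r = 0.863). Spast, Ctc1, Pan3 and Kbtbd6 ranked only 311, 222, 250 and 850 for Lgmn over single libraries. The genes named for Cst3 ranked between 7 (Dynlt1-ps1) and 253 (Cox14).

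The promoters of the members that moved and those that did not were read from RefSeq (GRCm38.p6), which gave 4 windows of 250 bases before a start site for 3 of the 4 genes: 1 for Cst3, 1 for Cst7 and 2 for Lgmn. They were searched on both strands for 3 motifs: GGAAGT, a core bound by ETS factors such as the myeloid factor PU.1, CACGTG, the E-box core of the lysosomal gene regulators, and TGANTCA, the AP-1 site. GGAAGT was found once for Cst7, 62 bases before the start, and in 19.7% of all 32851 promoter windows. CACGTG was found once at the second Lgmn start, 49 bases before it, and in 6.02% of windows. TGANTCA, in 6.75% of windows, was not found for these genes, and Cst3 held none of the 3. These matches describe letters in these windows. The Cst7 window, from the gene with the widest change, is given with its match in capitals (chr2:150570165-150570414, plus strand).
Cst7: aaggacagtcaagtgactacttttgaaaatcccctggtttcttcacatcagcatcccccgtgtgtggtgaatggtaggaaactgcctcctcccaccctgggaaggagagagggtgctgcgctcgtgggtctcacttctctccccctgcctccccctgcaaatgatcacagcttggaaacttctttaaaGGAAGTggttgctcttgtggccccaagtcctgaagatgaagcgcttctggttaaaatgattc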

How the data were processed

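Per the labels and the study's methods, RNA of CD11b-selected microglia was amplified with the Ovation RNA-Seq System, sheared, made into libraries and sequenced as paired ends. The authors summed exon reads over runs, dropped exons with few counts in most samples, combined exons into a gene value with a robust linear model and deposited log2 signals normalized to a common median; the labels name the GRCm38 build, and the aligner and annotation are not given in the sources used here. The table holds 18588 Entrez genes, of which 17828 (95.9%) were named from RefSeq.

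From these log2 values limma 3.58.1 (R 4.3.3) fitted the 8 group means to 28 libraries (20 residual degrees of freedom, unmoderated variance), with Benjamini-Hochberg FDR over all genes in each comparison. A gene was called at an FDR under 0.05 and a change over 1.5 fold, and genes that miss the fold limit are said to pass the FDR alone. The study's low-signal filter was already applied; all 4 members were in the table. Inhibitor minus target differences were compared with an exact permutation test, and correlations of deviations with 100000 permutations within groups. Scripts were tested on simulated data. Libraries were pools, and nothing says that replicates came from separate litters, so p-values measure the spread between these pools. The members, the gene lists and the tests were chosen with earlier results of these data known. Named genes were the 4 members, the called genes of the lists, and the 5 genes most alike to each member over group means; Ctsc, Ctsf, Ctsk, Ctso, Ctsw, Pigk, App, Mapt, Set, Trac and Tnfrsf11b were named after their values were seen.

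Same-numbered libraries of both genotypes were checked for pairing through the correlation of their deviations from group means over all genes. It was 0.131 to 0.153 at 6 months and 0.15 to 0.291 at 8 months, where every pair was over 0.1, but 0.0649 to 0.167 at 2 months and -0.0999 to 0.124 at 4 months. Differently numbered libraries had -0.127 to 0.0913 at 6 months and -0.259 to -0.0281 at 8 months. They had -0.194 to 0.0816 at 2 months and -0.0709 to 0.154 at 4 months, where the 2 kinds of pair overlapped. The labels do not say whether a number marks a shared batch. The pairing comes from these correlations alone at 6 and 8 months, and the main tests were unpaired. Alternatives tried were moderated variance, quantile normalization, genes above the 25th percentile of signal, all 32 libraries, only the groups compared, a replicate block and leaving out each library.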

Additional observations from a re-analysis of the deposited data

Results flagged for a closer look

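The genotype differences of Cst7 and Cstb differed between ages by a test of the difference itself: for Cst7 by 3.57 between 6 and 2 months and by 3.28 between 8 and 2 months, and for Cstb by 1.07, 1.18 and 1.03 between 4, 6 and 8 months and 2 months. Of 16 combinations of a gene with a group of 4 libraries, which share the same libraries, 1 held a library far from its fellows, WT replicate 1 at 6 months with a Cst3 signal of 17.07 against 17.21 to 17.23; chance alone gives about 1 in 20 groups. The rTg4510 libraries that the authors left out also lay above all WT libraries of their age, with Cst7 at 9.0 (4 months) and 8.95 (8 months) and Cstb at 10.48 and 9.19. At 4 months both values lay outside the kept rTg4510 libraries, which spanned 10.00 to 10.16 for Cst7 and 9.52 to 9.72 for Cstb.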

How the results depend on the processing

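Cst7 kept its direction and its call at 2, 6 and 8 months, and Cstb at 4, 6 and 8 months, under every alternative. After quantile normalization the genotype difference was -0.03 (2 months) and 0.33 (8 months) for Cst3, 0.44 at 2 months for Cstb, and -0.51, -0.49 and -0.49 at 4, 6 and 8 months for Lgmn; relative to 2 months it changed by 0.32, 0.21 and 0.36 for Cst3 and by -0.35, -0.33 and -0.33 for Lgmn at 4, 6 and 8 months, and between 6 and 8 months by 0.16 and 0.01. Cst3 then differed between 8 and 2 months by -0.29 in WT and 0.07 in rTg4510 microglia, and between 8 and 6 months in rTg4510 by 0.00. Pair differences under it were 5.57, 4.52 and 6.12 at 4 months for Cst7 minus Ctsc, Ctsl and Lgmn, 0.20, 0.02 and 0.22 at 4, 6 and 8 months for Cst3 minus Ctss, 0.81 at 8 months for Cst3 minus Lgmn, 0.11 and 0.25 at 2 and 8 months for Cstb minus Ctsb, and 0.13 and 0.18 at 6 and 8 months for Cstb minus Ctsl. The cause was not tested.

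With all 32 libraries Cstb at 2 months stayed at 0.48 but no longer passed the FDR, Cst3 at 4 months was -0.05, the differences between 8 and 2 months of Cst3 in WT (-0.28) and of Lgmn in rTg4510 (-0.17) did not either, and 165 in place of 368 genes were called at 2 months. Under quantile normalization 213 genes rose and 99 fell at 2 months, against 293 and 75 on the deposited scale. Fits of only the groups compared, with fewer residual degrees of freedom, called 244, 1561 and 1854 in place of 368, 2564 and 2950 genes at 2, 4 and 8 months, and Cstb at 2 months (0.48) and Cst3 between 8 and 2 months in WT (-0.29) no longer passed the FDR. The replicate block moved no genotype or interaction result of the 4 genes across the FDR; in the comparison of 8 with 6 months in rTg4510, Cst3 (-0.36) and Lgmn (-0.19) newly passed it, under the fold limit. With all 32 libraries, which allow a smaller exact p, an adjusted p of 0.0487 was reached by Cst7 minus Ctsc (1.12, 4.44 and 4.19 at 2, 6 and 8 months), minus Ctsl (0.64, 3.11 and 2.91) and minus Lgmn (1.32, 4.94 and 4.63), by Cst3 minus Ctsb (-0.37, -1.71, -1.56 and -1.68 at the 4 ages), by Cst3 minus Ctss (-0.30, -0.91 and -0.75 at 2, 4 and 6 months) and by Cstb minus Ctsl (-0.20 at 2 months), and the Cst7 pairs at 4 months were 5.24, 4.15 and 5.76.

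Leaving out each library in turn gave genotype differences of 0.42 to 0.52 for Cstb and -0.02 to 0.02 for Lgmn at 2 months, and -0.07 to 0.05 for Cst3 and -0.15 to -0.09 for Lgmn at 4 months, and a change between 6 and 8 months of -0.09 to 0.04 for Lgmn. Between 8 and 6 months the ranges were -0.24 to 0.16 (Cst7) and -0.24 to -0.11 (Lgmn) in WT, and -0.40 to -0.31 (Cst3) and -0.22 to -0.17 (Lgmn) in rTg4510. Between 8 and 2 months in WT they were -0.37 to -0.22 (Cst3) and -0.22 to -0.09 (Lgmn). Cstb minus Ctsb ranged over -0.08 to 0.07, -0.02 to 0.18 and -0.05 to 0.09 at 2, 4 and 6 months, Cstb minus Ctsl over -0.06 to 0.19 and -0.18 to 0.01 at 4 and 8 months, and Cst3 minus Lgmn over -0.06 to 0.04 at 8 months. Without WT replicate 3 at 8 months, Lgmn between 8 and 6 months passed the FDR in both genotypes (-0.24 in WT, -0.20 in rTg4510), as did Cst3 in rTg4510 without that library, WT replicate 2 at 8 months or WT replicate 4 at 4 months (-0.35 each).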
